A study of Homo sapiens with 4 samples.

Results

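The 10 genes described here are HIF1A, which encodes the oxygen-regulated alpha subunit of hypoxia-inducible factor 1 (HIF-1), and 9 genes known as targets of HIF: EGLN1, EGLN3, VEGFA, ADM, BNIP3, BNIP3L, KDM3A, P4HA1 and NDRG1. They were picked by name and by no cutoff on a measured value, with earlier results of these data known. Each matched 1 row of the gene tables, so they are 10 of 58243 genes. The cells were SH-SY5Y, a permanent human neuroblastoma line of adrenergic type. The control group was 2 libraries of untreated cells (control a and b). The other group was 2 libraries of cells exposed for 8 h to sodium nitroprusside (SNP a and b), a compound that releases nitric oxide. Cells of both groups were grown in serum-containing medium under 5% CO2 in air and settled for 24 h beforehand, so no library was from cells labelled as hypoxic. The dose of the sequenced SNP cells is not given, and retinoic acid differentiation is named in the treatment text but not in the growth text. The RNA of the SNP group is called oxidized in the labels, and no step that selected oxidized RNA is described. Nothing in the labels says that a and b were separate cultures, so the p-values measure only the spread between these libraries, which may be technical.

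HIF is a transcription factor made of an alpha and a beta subunit. While oxygen is present, the prolyl hydroxylases encoded by the EGLN genes mark the alpha subunit, the VHL ubiquitin ligase binds the marked protein, and the proteasome degrades it. When the hydroxylases are inactive the alpha subunit accumulates, pairs with the beta subunit (ARNT) and binds short motifs near target genes, which act in blood vessel growth, glycolysis, mitochondrial turnover and matrix synthesis. The pathway is therefore controlled mainly through the stability of the HIF1A protein, which RNA sequencing does not measure.

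The summed counts per library lay between 5613144 and 8056550, and 3 counts, the smallest number treated as a level, corresponded to 0.372 to 0.534 CPM (counts relative to library size); this floor covers counting error only. Levels are given as CPM after scaling by trimmed mean of M-values (TMM), and changes as log2 fold changes of SNP over control. They were tested by the quasi-likelihood method of edgeR, with p-values adjusted by Benjamini-Hochberg across all 14759 genes tested and a threshold of 0.05. Replicates were closer to each other (Pearson's r of log2 CPM across genes 0.982 in control and 0.984 in SNP) than libraries of different groups (0.958 to 0.963). Of the adrenergic neuroblastoma markers, 10 of 11 were tested, while TH was listed at 0 in every library. The list summed to 3353 and 3436 CPM in control and to 2710 and 2853 CPM in SNP. Of the 10, 3 were called higher (HAND2 by 0.41, CHGA by 0.91 and CHGB by 0.97) and 5 lower (among them DBH at -1.38, GATA3 at -0.45 and GATA2 at -0.39), which is 80% called against 26.2% of all genes tested. Of 5 endothelial or blood markers, 3 were listed at 0 in every library and the list summed to 0.92 to 1.55 CPM. The mesenchymal or Schwann-like list summed to 249 and 258 CPM in control and to 278 and 259 CPM in SNP, with 1 of 7 tested genes called higher and 1 lower. The part of these differences in the results below was not tested. In RNA from whole cultures, fewer cells of a type and less RNA per cell cannot be told apart.

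The HIF target genes did not move together after SNP. VEGFA rose by 46.0% and KDM3A by 24.0%, whereas NDRG1 fell to 0.579 of its control level, BNIP3 to 0.683 and EGLN3 to 0.687. HIF1A itself, ADM, BNIP3L, EGLN1 and P4HA1 did not pass the test. All 10 genes passed the filter on low counts. Of them, 5 were called (2 higher and 3 lower), against 26.2% of all genes tested (13.6% higher and 12.6% lower). In 4 genes both SNP libraries lay above both control libraries, in 4 both lay below, and in 2 the groups overlapped, whereas the groups did not overlap in 64% of all genes tested (31.7% above and 32.3% below). The median log2 fold change of the 10 genes was -0.063, and that of all genes tested was -0.0042. No call of a fall was kept without control b: the fit of the other 3 libraries gave 0 genes lower, with 3 of them lower at an unadjusted p under 0.05, and it kept VEGFA as its 1 higher gene. In that fit 8.28% of all genes were called higher and 7.49% lower.

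**Figure D1:**
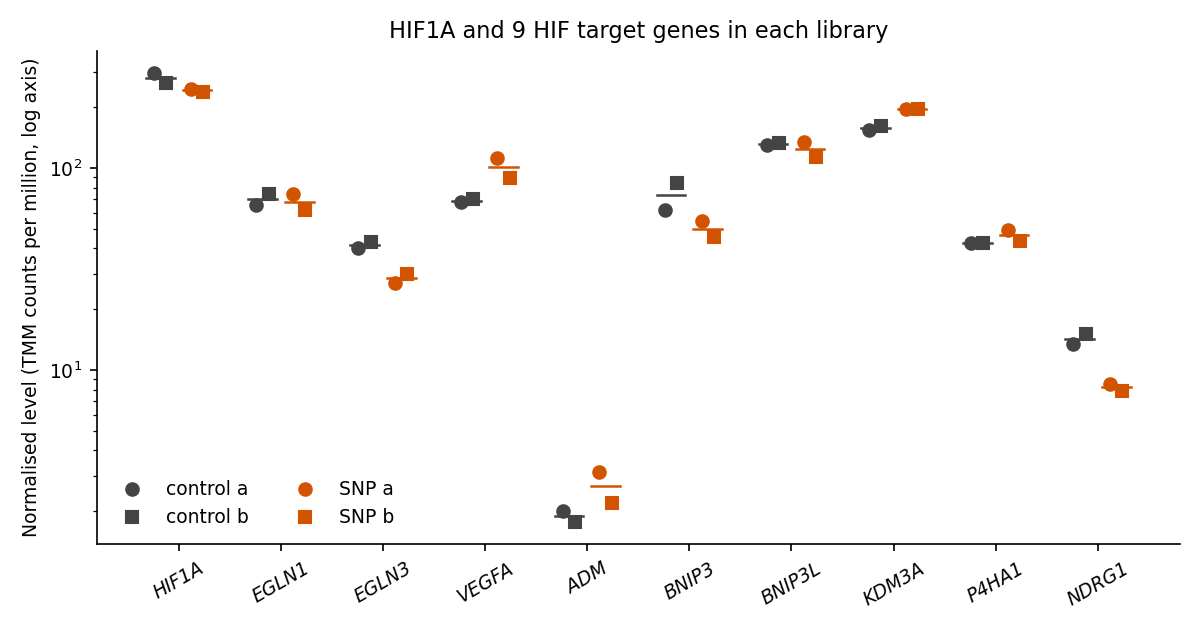
Normalised level of HIF1A and 9 HIF target genes in each of the 4 libraries (TMM-scaled CPM, log axis; circles are a libraries, squares are b libraries, horizontal lines are group means). Both SNP points of VEGFA and KDM3A lie above the control points, and both SNP points of BNIP3, EGLN3 and NDRG1 lie below them.

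HIF1A (ENSG00000100644, chr14:61695513-61748259 on the plus strand of GRCh38, 17 merged exons) had the highest count of the 10 genes. Its level in control was 294 CPM (a) and 265 CPM (b), and after SNP it was 246 CPM (a) and 238 CPM (b). Both SNP values were below both control values, but the distance from control b to SNP a was smaller than that between the control libraries. The log2 fold change was -0.21 (SE 0.096, 95% interval -0.41 to -0.0070), and the adjusted p of edgeR's test was 0.119. With offsets for gene length and GC content the same gene passed, at -0.37 with an adjusted p of 0.00235. The exons of HIF1A share 117 bases with the antisense HIF1A-AS1, which had at most 5 counts in a library, and 148 bases with AL137129.1, which had 8 to 30 counts.

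The oxygen sensors of the pathway include the EGLN prolyl hydroxylases, and EGLN1 and EGLN3 are themselves HIF targets, which closes a feedback loop. EGLN3 (ENSG00000129521, chr14:33924231-34462774, minus strand) was at 40.0 and 42.9 CPM in control a and b and at 27.0 and 29.9 CPM in SNP a and b. All SNP values lay below all control values, and the gap between the groups was wider than the spread within either. EGLN3 fell by 0.54 on the log2 scale (SE 0.147, 95% interval -0.85 to -0.24, adjusted p 0.00914 by edgeR). EGLN1 (ENSG00000135766, chr1:231363751-231425044, minus strand), the main sensor in most cells, was at 65.7 and 74.4 CPM in control and at 73.9 and 62.2 CPM in SNP. Its groups overlapped, with a log2 fold change of -0.038 (95% interval -0.30 to 0.22, adjusted p 0.856 by edgeR). This interval leaves room for a change of about the size seen in HIF1A in either direction. The third prolyl hydroxylase gene, EGLN2, which is not usually induced by hypoxia, rose by 0.63 (adjusted p 0.00107 by edgeR), from 45.1 and 49.6 CPM in control to 67.0 and 79.3 CPM in SNP. The call of EGLN3 was lost without control b (-0.49, adjusted p 0.0935) and that of EGLN2 was not lost in any fit that left out 1 library.

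VEGFA and ADM encode the secreted products among these genes. VEGFA (ENSG00000112715, chr6:43770184-43786487, plus strand), the vascular endothelial growth factor, stood at 67.5 CPM (a) and 70.3 CPM (b) without treatment, and at 111 CPM (a) and 89.6 CPM (b) after SNP. The control libraries were close together and both SNP libraries stood above them, SNP a further than SNP b. The log2 fold change was 0.55 (SE 0.122, 95% interval 0.29 to 0.80, adjusted p 0.00226 by edgeR). VEGFA was the only one of the 5 called genes that passed in every fit without 1 library, with log2 fold changes from 0.38 (without SNP a) to 0.70 (without SNP b). ADM (ENSG00000148926, chr11:10304680-10307397, plus strand), the vasodilator peptide adrenomedullin, was covered by 13 and 10 counts without treatment and by 25 and 17 after SNP. Scaled to library size, the untreated values were at most 2.0 CPM and the SNP values 3.14 and 2.20 CPM, so both SNP values were above both control values. Its log2 fold change of 0.50 was close to that of VEGFA, but the 95% interval ran from -0.49 to 1.48 (SE 0.476, adjusted p 0.480 by edgeR), so that a difference of this size was not detectable at this depth.

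Of the receptors for both ligands, KDR, FLT1 and CALCRL had at most 4 counts in a library. KDR, the main signalling receptor of VEGFA, had 1 count, in SNP b. FLT1, the other receptor kinase, had 4 and 3 counts without treatment and 3 and 0 after SNP. CALCRL, the receptor that binds adrenomedullin together with a RAMP protein, had 0 to 4 counts per library. The neuropilin co-receptor NRP1 had 130 to 218 counts per library, and its groups overlapped after scaling (log2 fold change 0.16). Of 8 receptor genes 4 were tested and 0 were called by edgeR, with 0 at an unadjusted p under 0.05, and DESeq2 and limma-voom each called 0 as well.

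BNIP3 and BNIP3L are close relatives that sit in the outer mitochondrial membrane and tether mitochondria to the autophagy machinery. BNIP3 (ENSG00000176171, chr10:131966455-131982013, minus strand) stood at 62.1 CPM (a) and 84.1 CPM (b) without treatment, and at 54.4 CPM (a) and 45.3 CPM (b) after SNP. Both SNP values were below both control values, and control b stood well above the other 3 libraries. BNIP3 fell by 0.55 on the log2 scale (SE 0.143, 95% interval -0.85 to -0.25, adjusted p 0.00706 by edgeR). Without control b the change was -0.32 with an adjusted p of 0.255, and without control a it was -0.76. The annotation lists 39 pseudogenes named after BNIP3, of which 2 had any counts, 18 in all 4 libraries together. BNIP3L (ENSG00000104765, chromosome 8) was at 130 and 133 CPM in control and at 135 and 113 CPM in SNP, with overlapping groups. Its log2 fold change was -0.088 (95% interval -0.32 to 0.14, adjusted p 0.599 by edgeR), and the sign turned to 0.036 without SNP b. Its exons share 330 bases with PNMA2 on the other strand, which rose by 0.55 (adjusted p 7.36e-04 by edgeR), and whether the authors' counting used strand is not stated.

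The list of 16 other mitophagy receptors and adaptors was tested in full, with 3 genes called higher and 2 lower and a median log2 fold change of 0.11. The 5 called are close to the 26.2% of all genes tested. Of the cargo adaptors that link ubiquitin to autophagosomes, OPTN rose by 0.79, SQSTM1 by 0.60 and TAX1BP1 by 0.54, while NBR1 (0.11, adjusted p 0.551 by edgeR) and CALCOCO2 (-0.33, adjusted p 0.146 by edgeR) did not pass. GABARAP, which coats the autophagosome membrane, fell by 1.03, and PHB2, an inner-membrane receptor, fell by 0.37. The receptors FUNDC1, BCL2L13 and FKBP8, which like BNIP3 lie on the outer membrane, did not pass the test, at -0.15, 0.21 and 0.10. With offsets for length, GC content and guanine over cytosine, TAX1BP1 (0.25) and PHB2 (-0.095) no longer passed, and FKBP8 did (0.41, adjusted p 0.00927 by edgeR).

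KDM3A and P4HA1 encode oxygen-dependent enzymes. KDM3A (ENSG00000115548, chr2:86440647-86492716, plus strand), a demethylase of histone H3 lysine 9, was at 154 and 161 CPM in control and at 195 CPM in both SNP libraries. The SNP libraries were nearly equal and both lay above control. KDM3A rose by 0.31 (SE 0.099, 95% interval 0.11 to 0.52, adjusted p 0.0235 by edgeR). It did not pass without control a (0.27, adjusted p 0.237) or without control b (0.34, adjusted p 0.113). P4HA1 (ENSG00000122884, chr10:73007217-73096974, minus strand), the catalytic subunit of collagen prolyl 4-hydroxylase, was at 42.3 CPM in both control libraries and at 49.3 and 43.5 CPM in SNP a and b. The SNP values were above control, SNP b by little. The log2 fold change of P4HA1 was 0.13 (SE 0.135, 95% interval -0.15 to 0.41, adjusted p 0.503 by edgeR).

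NDRG1 (ENSG00000104419, chromosome 8), a stress-responsive gene whose name records its repression by N-myc, was covered by 87 and 85 counts without treatment and by 68 and 61 after SNP. As CPM this was 13.4 and 15.1 in control against 8.54 and 7.89 in SNP, and the groups were further apart than the libraries within either. NDRG1 fell by 0.79 on the log2 scale (SE 0.230, 95% interval -1.26 to -0.31, adjusted p 0.0144 by edgeR), the most negative change of the 10 genes and at the 5.01 percentile of all genes tested. DESeq2 gave -0.79 with an adjusted p of 0.0830, and without control b the change was -0.70 with an adjusted p of 0.0975.

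**Figure D2:**
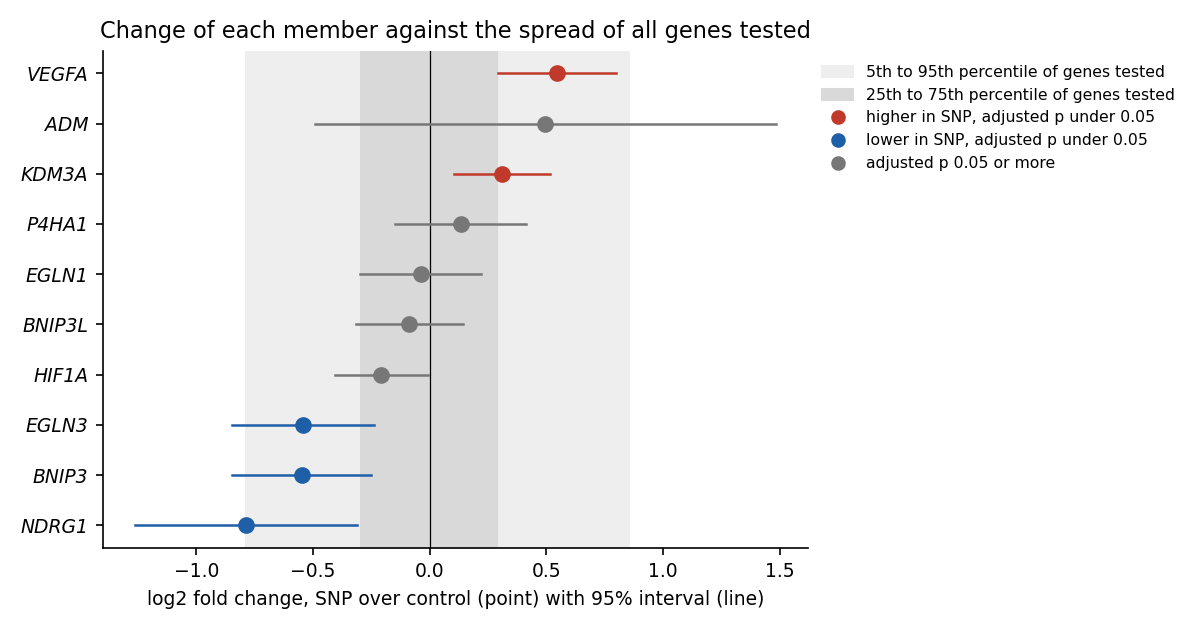
Log2 fold change of each gene, SNP over control (points), with its 95% interval (lines), over the spread of all genes tested (shaded bands). NDRG1, BNIP3, EGLN3, KDM3A, VEGFA and ADM lie outside the band that holds the middle of all genes (-0.30 to 0.29), and the interval of ADM crosses 0.

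HIF binds DNA at the core ACGTG or GCGTG. The 250 bases before the RefSeq transcription start (GRCh38.p14) were searched on both strands for ACGTG and GCGTG, and overlapping matches were each counted. RefSeq promoter entries matched 7 of the 10 genes (HIF1A, EGLN1, EGLN3, ADM, BNIP3, KDM3A and P4HA1). These genes have 9 windows, since HIF1A and KDM3A have 2 each. A core was present in 7 of the 9 windows, which cover 6 of the 7 genes, and in 43.2% of all 35116 promoter windows. The 2 KDM3A windows overlap and hold the same GCGTG, so this site was counted in both. The windows of BNIP3, EGLN3, KDM3A and P4HA1 are shown. They were picked with the changes known, as they pair the fewest and the most matches with similar falls. The other windows shown pair 1 match each with a rise and with no call. Sequences run 5′ to 3′ on the strand of the gene, and capitals mark the core or its reverse complement (CACGT or CACGC).
BNIP3: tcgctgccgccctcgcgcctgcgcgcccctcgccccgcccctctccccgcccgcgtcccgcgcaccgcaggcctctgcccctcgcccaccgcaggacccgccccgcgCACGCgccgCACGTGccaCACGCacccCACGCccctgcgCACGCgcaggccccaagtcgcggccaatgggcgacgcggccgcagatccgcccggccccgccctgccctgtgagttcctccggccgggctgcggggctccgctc
EGLN3: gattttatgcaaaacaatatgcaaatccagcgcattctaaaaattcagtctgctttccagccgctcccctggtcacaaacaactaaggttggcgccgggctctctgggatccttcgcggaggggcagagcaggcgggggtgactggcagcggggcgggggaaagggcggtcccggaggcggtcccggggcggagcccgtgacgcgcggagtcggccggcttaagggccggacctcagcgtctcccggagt
KDM3A: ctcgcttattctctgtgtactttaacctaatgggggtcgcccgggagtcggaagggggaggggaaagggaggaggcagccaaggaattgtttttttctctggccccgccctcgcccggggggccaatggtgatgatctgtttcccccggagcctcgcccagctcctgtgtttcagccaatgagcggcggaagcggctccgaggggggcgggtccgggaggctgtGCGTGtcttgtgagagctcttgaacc
P4HA1: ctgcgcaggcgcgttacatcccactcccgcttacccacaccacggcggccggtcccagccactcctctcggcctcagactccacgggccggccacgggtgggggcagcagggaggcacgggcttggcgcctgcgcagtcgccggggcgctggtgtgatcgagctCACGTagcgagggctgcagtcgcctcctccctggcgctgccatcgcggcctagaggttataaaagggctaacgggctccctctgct
The BNIP3 window (chr10:131981924-131982173, minus strand) held 6 matches. The palindrome counted as 2 of them, once per strand, covers bases 134 to 129 before the start, and the other 4 are GCGTG on the opposite strand. Of all windows, 0.646% held 6 or more matches. The EGLN3 window (chr14:33951075-33951324, minus strand) held 0. EGLN3 fell by 0.54 and BNIP3 by 0.55. KDM3A (chr2:86441121-86441370, plus strand) held 1 GCGTG at bases 26 to 22 before the start, and P4HA1 (chr10:73096867-73097116, minus strand) held 1 ACGTG on the opposite strand at bases 86 to 82. The share of G and C was 81.6% in the BNIP3 window and 62.4% in the KDM3A window shown, against a median of 58% over all windows. It was 31.2% in the second HIF1A window and between 64% and 81.2% in the remaining windows of these genes. A match describes letters only. Bases outside these windows were not searched, and a relation between matches and changes was not tested.

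Levels were compared between genes on the deposited TPM scale, which is corrected for gene length. In control a and b, HIF1A was highest (267 and 245 TPM), followed by BNIP3L (141 and 147), BNIP3 (54.5 and 75.2), P4HA1 (63.9 and 65.2), KDM3A (53.5 and 57.0), EGLN1 (42.2 and 48.7), EGLN3 (25.4 and 27.7), VEGFA (21.9 and 23.2), NDRG1 (6.36 and 7.30) and ADM (3.44 and 3.10). In control the only neighbours in this order whose libraries overlapped were BNIP3 and P4HA1. In SNP a and b, VEGFA was at 38.7 and 32.6 TPM and EGLN3 at 18.4 and 21.3 TPM, so VEGFA lay above EGLN3 in both SNP libraries and below it in both control libraries. BNIP3 was at 51.1 and 44.6 TPM in SNP, below P4HA1 (79.9 and 73.7) and KDM3A (72.7 and 76.1) in both SNP libraries.

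Other genes of the pathway were taken from lists. Of 20 regulators of HIF, 19 were tested, with 5 called higher and 5 lower (52.6% called, against 26.2% of all genes tested) and a median log2 fold change of 0.060. Besides EGLN2, the genes that rose most were the chaperones HSP90AA1 (0.62) and HSP90AB1 (0.47), which stabilise the HIF alpha subunit, and OS9 (0.50), which binds HIF1A and the hydroxylases. The genes that fell most were ELOB (-0.97), a subunit of the VHL ligase complex, RACK1 (-0.66), which promotes loss of HIF1A independently of oxygen, SIAH2 (-0.61), a ubiquitin ligase for EGLN proteins, and EPAS1 (-0.59), which encodes the HIF-2 alpha subunit. HIF1AN, which encodes a further hydroxylase of the pathway and was named after its values were seen, was also called higher (0.39, adjusted p 0.00585 by edgeR). VHL itself did not pass (0.26, adjusted p 0.117 by edgeR), nor did ARNT (-0.080, adjusted p 0.627 by edgeR). With offsets for length, GC content and guanine over cytosine, 4 of the 19 regulators were called (3 higher and 1 lower). The same fit called 10.2% of all genes tested higher and 9.59% lower. OS9 (0.27), HIF1AN (0.18), ELOB (-0.48), EPAS1 (-0.31) and SIAH2 (-0.24) were not among the 4. Without 1 library, the calls of SIAH2 (control b or SNP a), OS9 (control a) and EPAS1 (control a) were lost, and DESeq2 did not call SIAH2 (adjusted p 0.124).

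Of 36 other HIF targets outside glycolysis, 28 were tested, with 2 called higher and 2 lower and a median of -0.034. LONP1, a mitochondrial protease, rose by 0.71 and WSB1, a ubiquitin ligase adaptor, by 0.49. The chemokine receptor CXCR4 fell by 1.13 and the histone demethylase KDM4C by 0.38. KDM4C lost its call in 6 of 18 alternative analyses, DESeq2 among them (adjusted p 0.103). CXCR4 kept its call in all 18. CA9, a widely used marker of HIF activity, was listed at 0 in every library. Of the other targets, ANKRD37 (-0.74, adjusted p 0.142 by edgeR) and DDIT4 (0.66, adjusted p 0.0721 by edgeR), both named after their values were seen, did not pass. The share called, 14.3%, was below the 26.2% of all genes tested. With offsets for length and GC content, 7 of the list were called, beside 4209 of all 14759 genes tested.

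The glycolytic HIF targets were mostly lower. Of 21 genes, 19 were tested, with 2 called higher and 10 lower (63.2% called, against 26.2% of all genes tested) and a median of -0.33. GAPDH fell by 0.96, ALDOC by 0.83, ALDOA by 0.78 and PFKFB4 by 0.76. PFKFB3 and PFKL, which encode a regulator and a subunit of phosphofructokinase, rose by 0.48 and 0.38. Without control b, 7 genes of this list were called (1 higher and 6 lower). DESeq2 and the fit without control a called 0 higher, with adjusted p of 0.0734 and 0.167 for PFKFB3 and of 0.0666 and 0.317 for PFKL, and called 8 and 9 lower. ALDOC (adjusted p 0.134 by DESeq2) and PFKFB4 (0.0583 by DESeq2) were also lost in several alternatives, while GAPDH and ALDOA still passed with the guanine over cytosine offsets, at -0.54 and -0.40.

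Of the family relatives of the 10 genes, 3 were called higher and 3 lower among 14 tested, with a median of 0.0041. That is 42.9% called, against 26.2% of all genes tested. With offsets for length, GC content and guanine over cytosine, 2 relatives were called higher and 0 lower. That fit called 10.2% of all genes higher and 9.59% lower. Without offsets, PGF rose by 0.88, EGLN2 by 0.63 and JMJD1C by 0.28, while VEGFB fell by 0.81, NDRG3 by 0.59 and EPAS1 by 0.59. In the VEGF and EGLN families, members were called in both directions, as VEGFA rose while VEGFB fell, and EGLN2 rose while EGLN3 fell. In the NDRG family, NDRG1 and NDRG3 both fell, while NDRG2 (0.0041) and NDRG4 (-0.061) did not pass. In the KDM3 family, KDM3A and JMJD1C rose and KDM3B was at 0.22 (adjusted p 0.0984 by edgeR). Without control a, 3 relatives were called, with PGF, JMJD1C and EPAS1 lost. JMJD1C (0.12, adjusted p 0.257) did not pass with offsets for length and GC content, nor PGF by DESeq2 (adjusted p 0.116). NDRG3 (-0.39) and EPAS1 did not pass, nor did VEGFB, with offsets for length, GC content and guanine over cytosine (VEGFB -0.19, adjusted p 0.468 by edgeR).

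**Figure D3:**
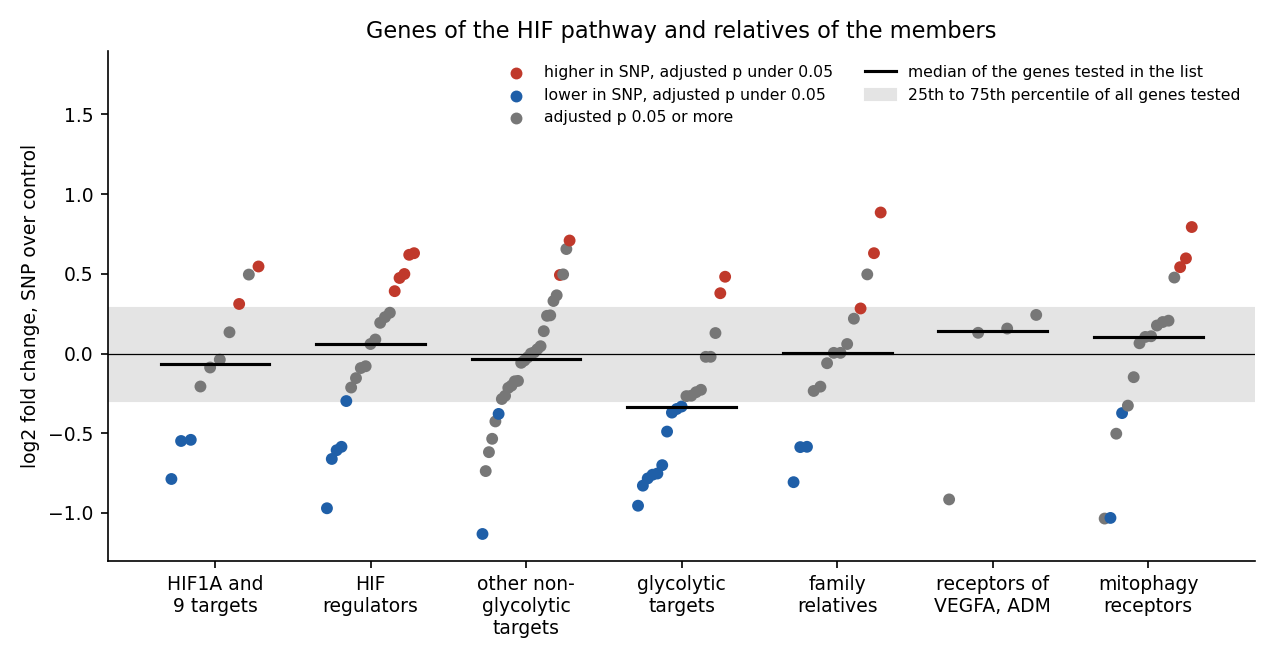
Log2 fold change, SNP over control, of every tested gene in the 10 genes and in 6 further lists (points, coloured by call; black lines are list medians; the grey band holds the middle of all genes tested, -0.30 to 0.29). The median of the glycolytic list (-0.33) is the only one below the band.

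Across all genes tested, the change after SNP moved with base composition. When genes were split into 10 equal bins by the guanine minus cytosine share of their transcripts, the median log2 fold change went from -0.43 in the lowest bin to 0.39 in the highest, with 39.8% and 43.2% of genes called at those ends and 15.8% in bin 6. VEGFA lay at the 82.6 percentile of this share, P4HA1 at 85.6, KDM3A at 64.5, EGLN3 at 63.2, BNIP3 at 37.0, HIF1A at 32.2 and NDRG1 at 24.0. The bin that holds EGLN3 had a median of 0.089, with 202 of its 1473 genes called higher and 88 lower. With offsets for length, GC content and guanine over cytosine, VEGFA (0.45, adjusted p 0.0160 by edgeR), BNIP3 (-0.45, adjusted p 0.0361) and EGLN3 (-0.59, adjusted p 0.00541) still passed. That fit called 10.2% of all genes higher and 9.59% lower. In the same fit HIF1A passed (-0.27, adjusted p 0.0187), KDM3A (0.20, adjusted p 0.0889) and NDRG1 (-0.57, adjusted p 0.0737) did not, and P4HA1 changed sign (-0.16, adjusted p 0.335). The origin of the relation with base composition was not tested.

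**Figure D4:**
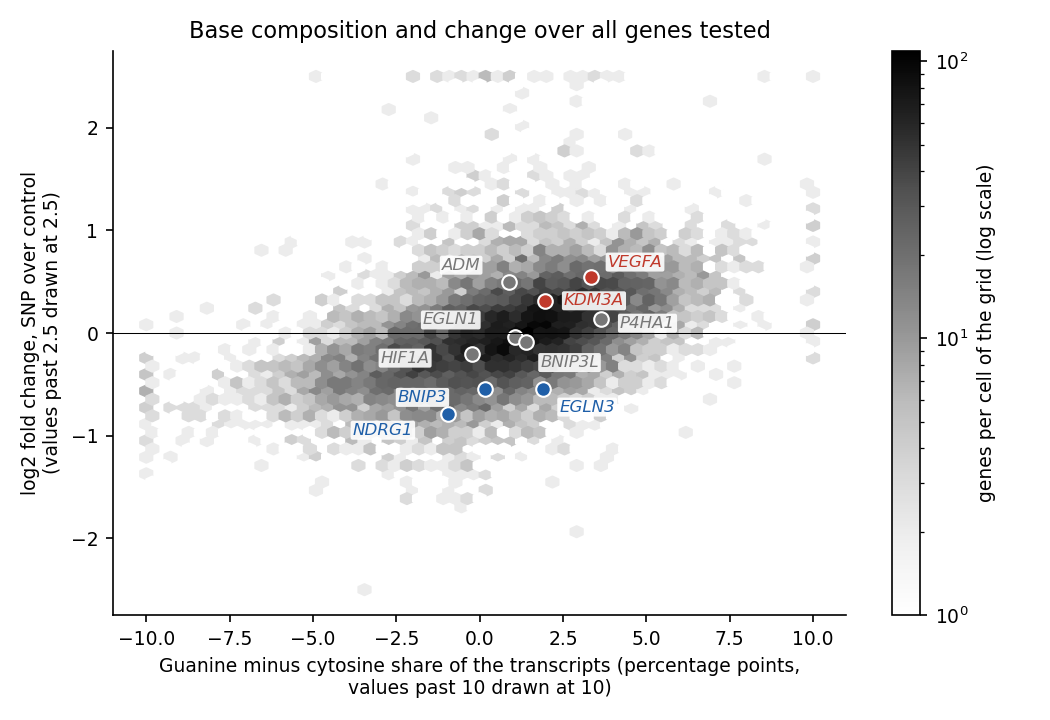
Log2 fold change, SNP over control, against the guanine minus cytosine share of each gene's transcripts (percentage points) for all genes tested (grey grid, darker where more genes lie) and for the 10 genes (points; red higher, blue lower, grey adjusted p of 0.05 or more). VEGFA and P4HA1 lie towards the right, HIF1A, BNIP3 and NDRG1 left of the centre, and EGLN3 lies right of the centre at -0.54.

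The 18 alternative analyses left the direction of HIF1A, VEGFA, ADM, BNIP3, EGLN3, KDM3A and NDRG1 as reported. ADM could be tested in 17 of the 18. The stricter thresholds among the 18 reuse the reported changes, so they could not alter a direction. BNIP3L, EGLN1 and P4HA1, which were not called, changed sign in 1, 2 and 1 of the 18.

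**Figure D5:**
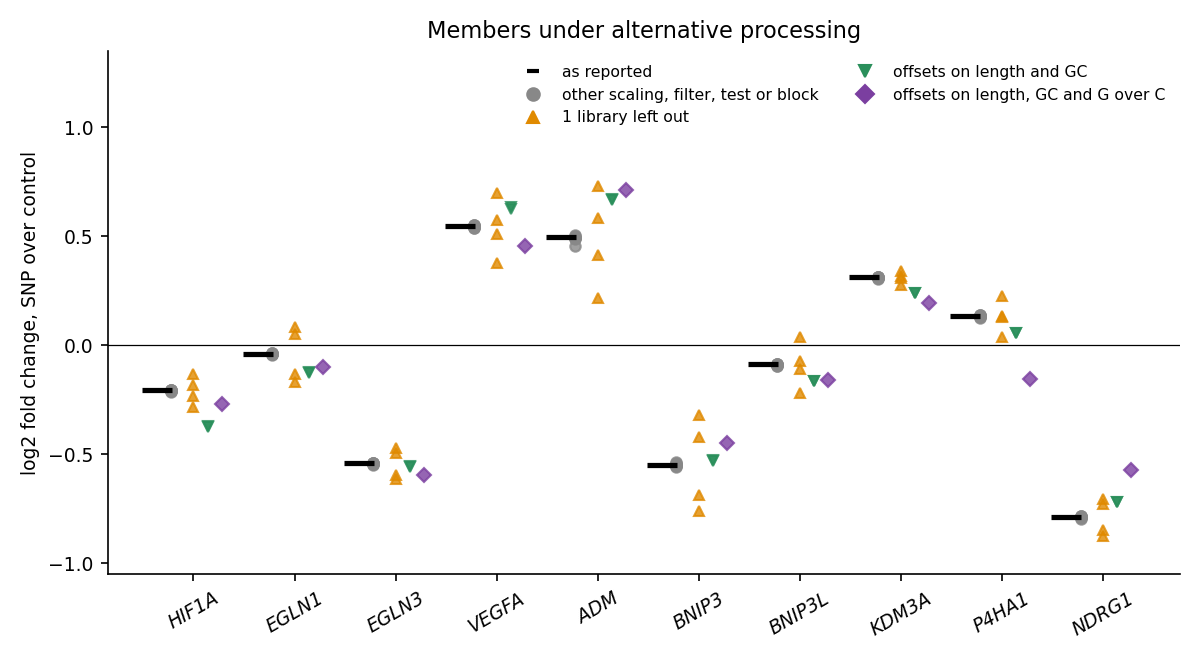
Log2 fold change of each gene as reported (black bars) and under the alternatives that refit the data (grey circles, other scaling, filter, test or replicate block; orange triangles, 1 library left out; green triangles, offsets on length and GC; purple diamonds, offsets on length, GC and G over C). VEGFA spans 0.38 to 0.70 and BNIP3 -0.76 to -0.32, with the orange triangles widest.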

How the data were processed

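RNA sequencing was analysed in 4 SH-SY5Y libraries, 2 control and 2 SNP, grouped by their titles and descriptions. The genome build is GRCh38, per the submitters' processing notes; the aligner, counter, annotation and strand setting are not given in the sources used here. The authors deposited whole-number counts per gene, TPM (scaled to a fixed sum per library, per the file headers and column sums) and RPKM per library. Tests used the deposited counts, and the deposited TPM served to compare genes. The deposited RPKM implied the authors' length per gene, which served as a check only. The counts summed to 11.5% to 13.3% of the read total implied by RPKM, and the labels give 75 bp reads and 40 M reads per sample. Summed counts of 5613144 to 8056550 set the precision.

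Of the gene identifiers, 57980 were in GENCODE 29. The lengths implied by RPKM equalled its merged exon lengths for all 10 members and for 89.2% to 89.4% of counted genes. Positions, overlaps, base composition and the lengths used for the offsets were taken from GENCODE 29. Counts were tested with edgeR 4.0.16 in R 4.3.3 (filterByExpr with a minimum count of 10 and a minimum total of 15, TMM factors 0.989 to 1.01, no covariate), with Benjamini-Hochberg adjustment over all genes. Each standard error is the fold change on the log2 scale divided by the square root of F. The control libraries differed by more than counting noise (chi-square per degree of freedom 2.94), as did the SNP libraries (5.04). Alternatives were other scalings, filters and tests (DESeq2 1.42.0, limma-voom of limma 3.58.1), the letter as a block, per-library lowess offsets (span 0.5, 3 iterations) on length, GC and guanine over cytosine, stricter thresholds and leaving out each library.

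The members, lists, alternatives and naming rule were chosen with earlier results of these data known. All members are named; from each list up to 4 risen and 4 fallen genes are named (adjusted p under 0.05, groups apart, mean of at least 5 CPM), besides relatives, receptors and regulators set beside a member. In simulated counts with 200 genes moved by 1 on the log2 scale, 77.3% of the 198 tested among 14674 genes were recovered and 5.56% of calls fell on unchanged genes; with no change, 0 were called. A trend on guanine over cytosine content was then added to the simulated SNP libraries. Without offsets 87.8% of 1308 calls fell outside the 200 genes, and with offsets 16.5% of 194 calls. The trend shifted the genes outside the 200 as well, and it was a term that the offsets remove. These shares therefore cannot show which calls in the real data are false.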

Additional observations from a re-analysis of the deposited data

How the results depend on the processing

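The number of genes called was 3861; it was 2415 by DESeq2, 2224 at an adjusted p under 0.01, 647 with a change of 1 or more on the log2 scale as well, and 2447 to 4152 without 1 library. Of the 10 genes, 2 were called higher: 1 to 2 without 1 library, 1 under the guanine over cytosine offsets, 1 at 0.01 and 0 with the fold threshold. Those called lower numbered 3, but 0 to 3 without 1 library (0 without control b) and 0 with the fold threshold. Regulators called were 10, with 4 under the guanine over cytosine offsets. Other non-glycolytic targets were 4, with 7 under each of the 3 sets of offsets and 3 to 8 without 1 library. Glycolytic targets were 12, with 7 at 0.01 and 7 to 12 without 1 library; relatives were 6, with 2 under the guanine over cytosine offsets and 3 to 5 without 1 library. With the fold threshold these lists gave 0, 1, 0 and 0 calls, and the mitophagy list 1. P4HA1 turned to -0.16 under the guanine over cytosine offsets; without 1 library BNIP3L ranged from -0.22 to 0.036 and EGLN1 from -0.17 to 0.084. For these changes the cause was not tested, beyond the fewer libraries or the stricter threshold itself. The letters a and b were treated as unpaired. The correlation of the a-minus-b differences of both groups was 0.050, which cannot show whether the letters mark a shared batch. With the letter as a replicate block 4487 genes were called, and the same number of the 10 genes in each direction. The median change of the 10 genes stayed between -0.19 and 0.060. Few counts limit ADM most.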

Other observations

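The make-up of 3 gene families on the deposited TPM scale is given as values. Of the summed TPM of the 3 EGLN genes, EGLN2 made up 32.1% and 31.9% in control a and b and 42.4% and 48.8% in SNP a and b, EGLN3 made up 25.5% and 24.7% against 15.3% and 16.5%, and EGLN1 made up 42.4% and 43.4% against 42.3% and 34.7%. Of the summed TPM of VEGFA, VEGFB, VEGFC, VEGFD and PGF, VEGFA made up 21.5% ± 0.63 (SD, n = 2) in control and 38.0% ± 3.74 in SNP, and VEGFB made up 71.3% ± 1.62 against 49.5% ± 2.20. VEGFC was listed at 0 in every library. HIF1A made up 90.7% and 90.4% of the HIF alpha genes (HIF1A, EPAS1 and HIF3A) in control and 92.0% and 92.1% in SNP. These shares were not tested, and shares of 1 family cannot move independently. The TPM scale is not corrected for base composition. VEGFB lay at the 2.49 percentile of the guanine minus cytosine share and VEGFA at the 82.6 percentile. With the guanine over cytosine offsets VEGFA was at 0.45 (adjusted p 0.0160 by edgeR) and VEGFB at -0.19 (adjusted p 0.468 by edgeR).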
